A study of Oryza sativa with 9 samples.

Results

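The genes described here were those whose transcripts stood higher in leaves of 1 mutant rice line than in a second line of the same labelled genotype and in wild type. They were chosen from a table of transcript levels of 55986 gene identifiers. A gene was a member if it averaged at least 1 TPM over all 9 libraries and if its lowest library of mutant line 1 was at least 2 times the highest of the 6 other libraries. In addition, its mean in mutant line 2 had to be under 2 times its mean in NP, or both had to be 0. TPM is a transcript level per gene length, scaled so that each library sums to 1000000. The rule gave 125 members among the 19345 genes that averaged at least 1 TPM, which is 0.646% of them. Because the rule read every library, the levels and fold changes below describe the members and test nothing.

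Leaves of 40-day-old plants of Oryza sativa from a paddy field were sequenced as total RNA libraries. Mutant line 1 and mutant line 2 both carry the genotype label osatxr5c;osatxr6kd and are told apart by a number after it in the library titles. NP is labelled WT and was the reference. Each of these 3 groups held 3 libraries, and the titles do not say whether those came from separate plants, pools or repeat preparations. Any spread between libraries may therefore be technical. The design text of the series speaks of a null osatxr5;osatxr6 mutant, and whether either line is that mutant is not given. How each line was made, and whether a line descends from 1 transformed plant, is not given in the sources used here. A library of mutant line 1 listed 22170 to 22223 genes above 0. The range was 22397 to 22621 in mutant line 2 and 21798 to 21885 in NP. Across the tested genes, libraries of the same group correlated at a Pearson's r of 0.990 to 0.994 in log2(TPM + 1), and libraries of different groups at 0.964 to 0.977. No library stood apart from its group.

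ATXR5 and ATXR6 are plant histone methyltransferases that place a single methyl group on lysine 27 of histone H3 (H3K27), a mark of silent chromatin. In Arabidopsis their joint loss is known for releasing silenced transposable elements and for extra rounds of DNA replication in heterochromatin. OsATXR5 and OsATXR6 are the rice counterparts. The deposited table names genes by locus identifier alone. None of these identifiers matched the 39387 rice gene records used for names, so the members carry no symbol, role or sequence here. For the same reason the targeted genes and the leaf markers were not analysed here. In what follows members are told apart by level, by pattern and by the chromosome number that each identifier contains.

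The 125 members fell into a pair of classes. In 97 members at least 1 library of mutant line 2 or NP was above 0, and 91 of these were above 0 in all 9 libraries. The other 28 members were listed at 0 in all 3 libraries of mutant line 2 and all 3 of NP. They are called silent below for that listing alone, since a listed 0 does not show that transcripts were absent. The summed level of all members was 18326, 17135 and 18218 TPM in mutant line 1. It was 5779, 5847 and 5529 TPM in mutant line 2, and 5469, 4958 and 4966 TPM in NP. Between 1.71% and 1.83% of a line 1 library thus came from these genes, against 0.553% to 0.585% of a line 2 library and 0.496% to 0.547% of an NP library. Nearly all of it came from the 97 expressed members: the 28 silent ones gave 333, 301 and 333 TPM in mutant line 1. In whole leaves, a change in the share of a cell type and a change in RNA per cell cannot be told apart.

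**Figure D1:**
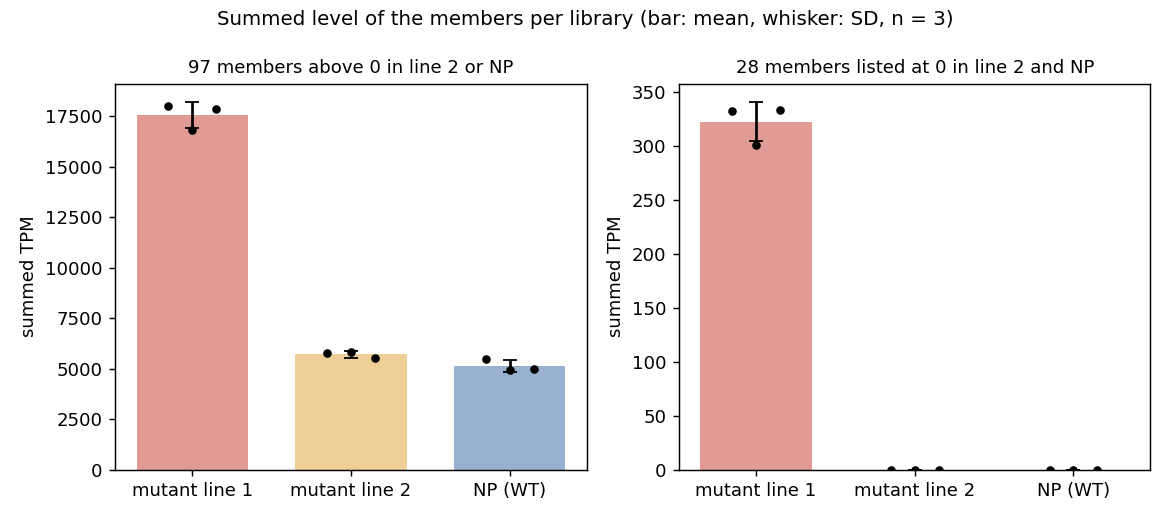
Summed TPM of the 97 members that were above 0 in line 2 or NP (left) and of the 28 members listed at 0 there (right), per library as points, with the mean as a bar and the SD as a whisker. The left sums lie between 16834 and 17993 TPM in mutant line 1, and the right sums are 0 in every library of mutant line 2 and NP.

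The expressed members covered a wide range of levels. Their mean in mutant line 1 ran from 2.08 to 2049 TPM with a median of 50.7 TPM, and 33 of the 97 reached at least 100 TPM there. In NP, 14 of the 97 (14.4%) averaged at least 100 TPM, against 7.41% of all tested genes. At the low end, 15 of the 97 (15.5%) averaged under 1 TPM in NP, against 2.48% of all tested genes. The median NP level of the 97 was 12.8 TPM and that of all tested genes 13.2 TPM. The expressed members thus had a middle level like that of other genes and were spread more widely to both ends. The rule bears on the low end, since a gene under 1 TPM in NP entered the tested set only if other libraries raised its mean.

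**Figure D2:**
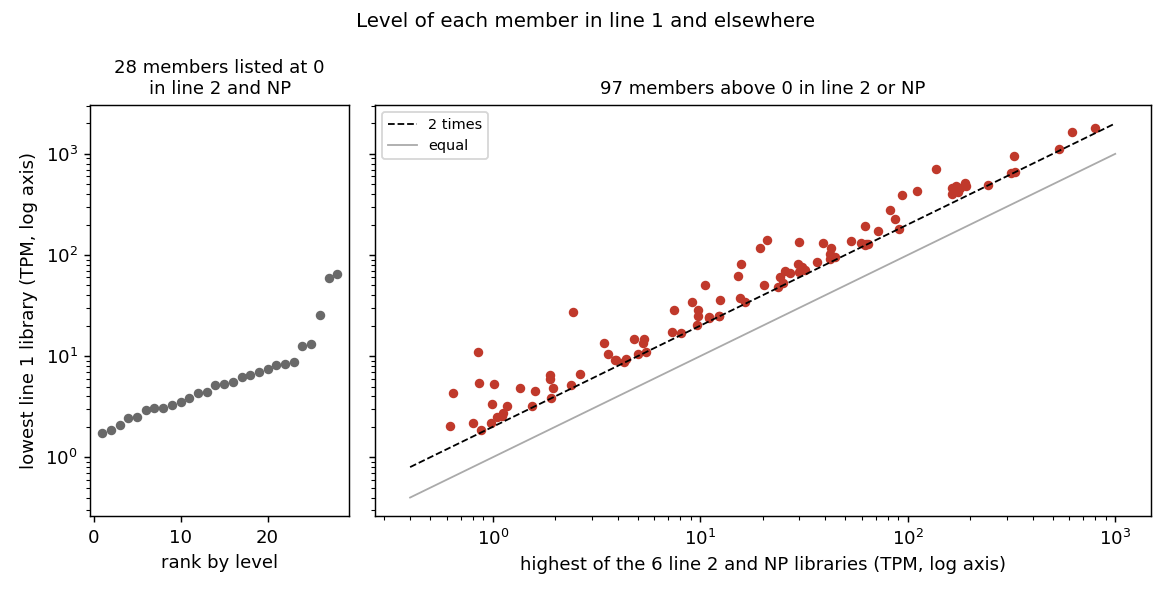
Lowest line 1 library of each member in TPM on a log axis. On the left the 28 members listed at 0 elsewhere are ranked by level, from 1.73 TPM upward; on the right the 97 others are set against their highest line 2 or NP library, all above the dashed line of 2 times that the rule required.

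The 2 most abundant members in mutant line 1 also had high transcript levels in the other groups. The highest, on chromosome 3, was at 2209.7, 1784 and 2153 TPM in mutant line 1, at 791, 800.3 and 754 TPM in mutant line 2, and at 744, 624 and 623 TPM in NP. Replicate 2 was the lowest of the line 1 libraries here, and mutant line 2 lay above NP in every library. The next, on chromosome 1, was at 1643, 1693 and 1627 TPM in mutant line 1, at 550.3, 571 and 492 TPM in mutant line 2, and at 621, 575 and 553 TPM in NP. For this gene the line 2 and NP libraries overlapped. These 2 members together held 20.7% of the members' summed level in mutant line 1.

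Fold changes are given for the 91 members above 0 in all 9 libraries. The mean of mutant line 1 over that of NP had a median of 3.52 and ran from 2.28 to 13.8, with 34 members at 4 or more and 3 at 10 or more. The mean of mutant line 1 over that of mutant line 2 had a median of 3.19 and ran from 2.06 to 31.4. Across all tested genes above 0 in NP the median ratio of mutant line 1 to NP was 0.955. Many members lay near the limit that the rule set: in 50 of the 97 expressed members the lowest line 1 library was under 2.5 times the highest other library, and in 13 it was at least 4 times.

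The gene farthest above NP among these 91, on chromosome 9, was at 139, 139.9 and 142 TPM in mutant line 1, at 20.2, 21.1 and 18.2 TPM in mutant line 2, and at 11.4, 9.56 and 9.55 TPM in NP. Its mutant line 1 mean was 13.8 times that of NP and 7.09 times that of mutant line 2. Its line 1 libraries differed little from each other, and mutant line 2 lay above NP without overlap. A second member on chromosome 9 was far more abundant, at 801, 716 and 796 TPM in mutant line 1, at 136, 137 and 127 TPM in mutant line 2, and at 84.7, 72.1 and 70.3 TPM in NP. It stood 10.2 times above NP and 5.79 times above mutant line 2.

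The gene farthest above mutant line 2 among the 91 had the opposite order of the other groups. This member, on chromosome 12, was at 27.5, 30.4 and 29.2 TPM in mutant line 1, at 0.890, 0.789 and 1.10 TPM in mutant line 2, and at 2.16, 2.44 and 2.13 TPM in NP. Mutant line 1 was 13.0 times NP and 31.4 times mutant line 2, and mutant line 2 lay below NP in all libraries. On chromosome 5 a member stood at 81.6, 83.2 and 87.5 TPM in mutant line 1, at 13.7, 13.9 and 13.8 TPM in mutant line 2, and at 12.9, 13.6 and 15.7 TPM in NP. Here the line 2 and NP libraries overlapped, and only mutant line 1 was apart.

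A further 6 members were above 0 in some but not all of the 6 other libraries, so no fold change is given for them. The highest of these, on chromosome 10, was at 11.1, 13.6 and 11.3 TPM in mutant line 1, at 0.662, 0.618 and 0.497 TPM in mutant line 2, and at 0.372, 0.850 and 0 TPM in NP. One on chromosome 8 was at 5.38, 6.45 and 5.36 TPM in mutant line 1, listed at 0 in all 3 libraries of mutant line 2, and at 1.02, 0 and 0.851 TPM in NP. None of the 6 exceeded 1.18 TPM in a library of mutant line 2 or NP. The lowest nonzero value of a library was between 0.303 and 0.327 TPM, so such values lie near the edge of what was listed.

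The ratio condition cut through a continuous range. Just inside it, a member on chromosome 5 was at 131, 129 and 135 TPM in mutant line 1, at 64.5, 63.9 and 62.4 TPM in mutant line 2, and at 44.1, 41.1 and 41.6 TPM in NP, a ratio of 2.01. Just outside it, a gene on chromosome 6 was at 364, 334 and 331 TPM in mutant line 1, at 152, 156 and 168 TPM in mutant line 2, and at 102, 101 and 108 TPM in NP, a ratio of 1.97. The condition on mutant line 2 removed 34 of the 159 genes (0.822% of those tested) that met the ratio condition, because their line 2 mean was at least 2 times their NP mean or was above 0 where NP was 0.

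The silent class was led by LOC_Os07g05840 and LOC_Os10g18090. The first was at 64.4, 65.7 and 66.3 TPM in mutant line 1, a mean of 65.5 ± 0.947 TPM (SD, n = 3), and was listed at 0 in every library of mutant line 2 and NP. The second was at 59.8, 61.6 and 64.8 TPM in mutant line 1, a mean of 62.1 ± 2.54 TPM (SD, n = 3), and was likewise listed at 0 elsewhere. No fold change can be given against 0. Both sat above the median of 50.7 TPM that the expressed members reached in mutant line 1.

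The rest of the silent class was lower. Of the 28 silent members, 7 averaged between 10 and 100 TPM in mutant line 1 and 21 averaged under 10 TPM, with a median of 5.65 TPM. The lowest single line 1 value was 1.73 TPM, several times the edge of 0.303 to 0.327 TPM below which nothing was listed. The rule bears on this, since a gene at 0 in the 6 others reached the minimum mean through mutant line 1 alone. The lowest line 1 mean of the 28 was 3.13 TPM. The least even of the 28, on chromosome 6, was at 1.85, 4.83 and 5.28 TPM in mutant line 1. These 28 genes belonged to 99 genes in the table that were above 0 in all line 1 libraries and at 0 in all 6 others. The other 71 averaged at most 2.82 TPM in mutant line 1 and did not reach the minimum mean. With mutant line 2 in the same place there were 43 genes, of which 2 averaged at least 1 TPM over all libraries, and with NP there were 13, of which 0 did. Among genes listed at 0 in 1 group and above 0 in every other library, 28 were at 0 in mutant line 1, 11 in mutant line 2 and 126 in NP. Of these, in the same order, 0, 2 and 41 averaged at least 1 TPM over all libraries.

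The same selection gave fewer genes for the other groups. With the lines exchanged it gave 51 genes raised only in mutant line 2, and with NP in the place of mutant line 1 it gave 6 genes. Genes with the highest line 1 library at most 0.5 times the lowest other library, the counterpart in the downward direction without a condition on mutant line 2, numbered 25. These counts come from the same 9 libraries and were not tested against each other.

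In limma's fit of log2(TPM + 1) over all 19345 tested genes, all 125 members passed an adjusted p of 0.05 as higher in mutant line 1 than in NP, where 9.94% of tested genes did and 25.6% changed in either direction. All 125 were also called higher in mutant line 1 than in mutant line 2, where 6.8% of tested genes were and 22% changed in either direction. The rule used both contrasts, so these counts follow from the choice of members. The median change of the members was 1.87 on the log2(TPM + 1) scale in mutant line 1 against NP and 1.72 in mutant line 1 against mutant line 2. Over the expressed members alone these medians were 1.65 and 1.57. Over all tested genes these medians were -0.06 and -0.07. The median standard error of a member's change was 0.11.

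A library can be left out of the rule and read afterwards, so that its own value was not used by the choice. The values it was set against were used to choose the genes, so high shares were favoured in advance. Without line 1 replicate 1 the rule chose 115 genes, and in the unused library 113 of them were at least 2 times the highest line 2 or NP library. Without replicate 2 it chose 124, of which 115 passed in the unused library, and without replicate 3 it chose 116, of which 116 did. Every one of these genes stood above all 6 other libraries in the unused line 1 library. Over all tested genes 5.77% had all line 1 libraries above all others. That condition is stricter than for 1 library, and the share of tested genes for 1 library is not given here. When an NP or line 2 library was left out, between 95.4% and 99.2% of the genes chosen on the other 8 libraries had a lowest line 1 value at least 2 times the unused one. In 1 gene, chosen without NP replicate 1, that unused NP library was above the lowest line 1 library. The unused library belongs to the same line or the same NP group and may be a repeat preparation. These shares therefore describe the libraries of these 3 groups and say nothing of another line.

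The expressed members were about as even between the line 1 libraries as other genes, and the silent ones were less even. The rule set a limit on the lowest line 1 library, which favours even genes. The classes were not matched for level: the median line 1 mean was 50.7 TPM in the expressed members and 5.65 TPM in the silent ones. The highest line 1 library over the lowest had a median of 1.13 in the 97 expressed members and 1.35 in the 28 silent ones, against 1.18 over all tested genes above 0 in mutant line 1. Replicate 2 was the lowest of the line 1 libraries in 44 of the 97 and in 14 of the 28, against 32.0% of tested genes. Replicate 3 was lowest in 20 of the 97 and in 5 of the 28, against 28.3% of tested genes. The largest spread among the expressed members was 1.44, in a member on chromosome 10 at 3.60, 2.52 and 3.64 TPM in mutant line 1, at 1.05, 0.570 and 0.738 TPM in mutant line 2, and at 0.379, 0.374 and 0.625 TPM in NP. A far more abundant member on chromosome 6 was nearly as uneven, at 1617, 1125 and 1524 TPM in mutant line 1, at 474, 451 and 441 TPM in mutant line 2, and at 538, 498 and 537 TPM in NP.

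Mutant line 2 did not match NP in all expressed members. Of the 97, 36 (37.1%) had all line 2 libraries above all NP libraries, where 21.1% of tested genes did, and 17 (17.5%) had all of them below, where 16.7% did. In the other 44 members the libraries of mutant line 2 and NP overlapped. In limma's fit 33 of the 97 were called higher in mutant line 2 than in NP, where 13.5% of tested genes were, and 14 were called lower, where 8.39% were. That made 47 called in either direction, where 21.9% of tested genes were. The rule used this contrast too: it capped how far mutant line 2 could lie above NP, set no floor below it, and left both far below mutant line 1. Over the 91 members above 0 in all libraries the line 2 mean over the NP mean had a median of 1.14 and ran from 0.303 to 1.95, against a median of 1.0 over all tested genes above 0 in NP.

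**Figure D3:**
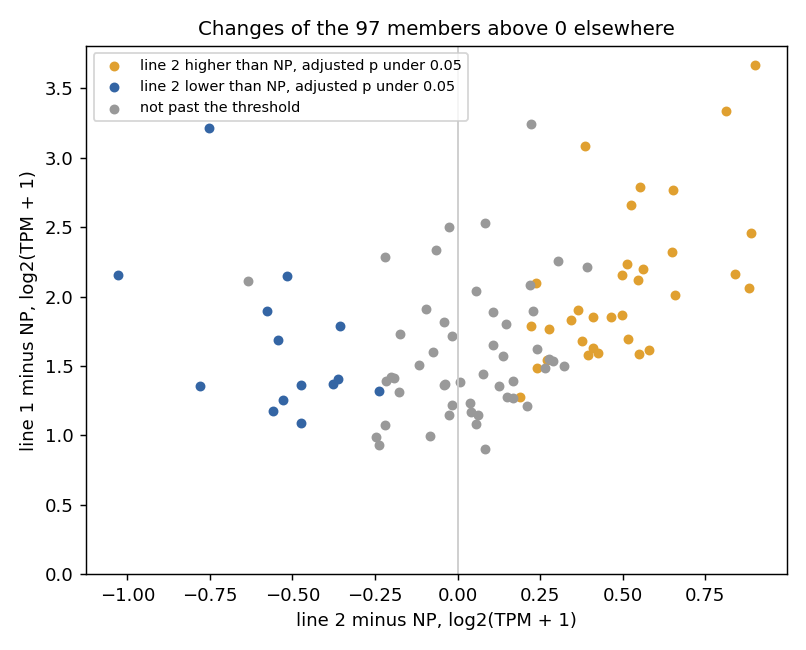
Change of each of the 97 expressed members in line 1 minus NP (vertical) and line 2 minus NP (horizontal), both on the log2(TPM + 1) scale. Yellow points are the 33 members called higher and blue points the 14 called lower in mutant line 2 than in NP; both axes share the NP libraries, so no relation between them is read.

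Among the 14 members called lower in mutant line 2 than in NP, LOC_Os10g24004 and LOC_Os02g40530 had the largest falls on the log2(TPM + 1) scale. LOC_Os10g24004 was at 17.0, 17.4 and 13.4 TPM in mutant line 1, at 0.796, 0.931 and 0.836 TPM in mutant line 2, and at 2.1, 2.93 and 3.43 TPM in NP. Its change in mutant line 2 against NP was -1.03 ± 0.14 (SE), and its change in mutant line 1 against NP was 2.15 ± 0.14 (SE), both on the log2(TPM + 1) scale. The 3 groups did not overlap, with mutant line 1 highest and mutant line 2 lowest. LOC_Os02g40530 had the same order, at 7.45, 7.23 and 6.70 TPM in mutant line 1, at 0.996, 0.753 and 0.809 TPM in mutant line 2, and at 2.65, 1.91 and 2.01 TPM in NP. Its change in mutant line 2 against NP was -0.78 ± 0.13 (SE) on that scale.

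The position of the members was not used by the rule. Locus identifiers of this form contain the chromosome number and a number that runs along the chromosome, so they give an order but no distance. The members lay on all 12 chromosomes, from 4 of 1052 tested genes (0.380%) on chromosome 11 to 10 of 994 (1.01%) on chromosome 10. The classes were spread differently: chromosome 1 held 16 expressed and 0 silent members, and chromosome 4 held 3 expressed and 5 silent ones. With so few genes per chromosome these differences are given as counts only.

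**Figure D4:**
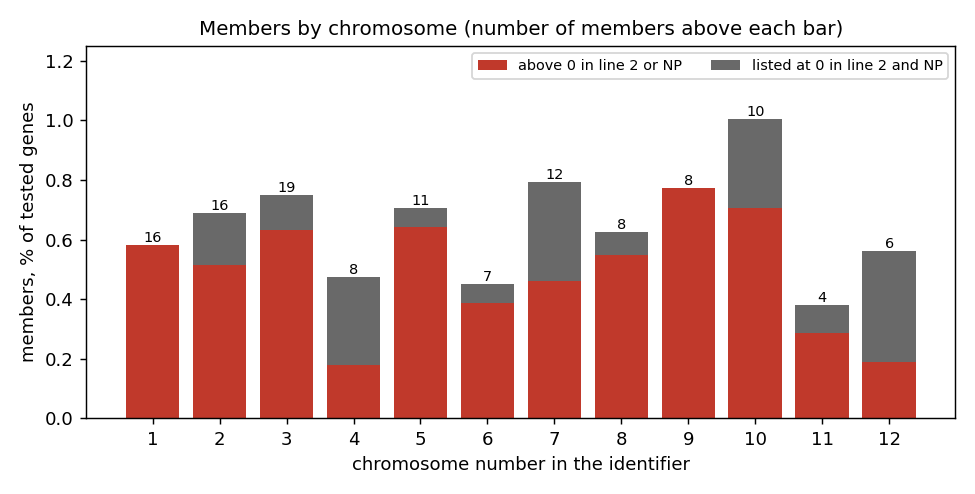
Members as a percentage of the tested genes of each chromosome, with expressed members in red, silent members in grey and the number of members above each bar. The share runs from 0.380% on chromosome 11 to 1.01% on chromosome 10, and no chromosome lacks members.

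Some members were direct neighbours in identifier order. In the full list of identifiers 8 pairs of members stood next to each other, and they involved 15 members. Among tested genes 12% of the members had another member as the next tested identifier on either side, while 1.29% of all tested genes had a member there. Within 5 tested identifiers the shares were 16% of members and 6.05% of tested genes, and within 20 they were 28.8% and 21.5%. The shares thus differed most, as a ratio, for direct neighbours. Of the 51 genes raised only in mutant line 2, 5 (9.80%) were next to another of them, and of the 25 genes lowered only in mutant line 1, 0 were. No test was made of these shares.

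Of the 28 silent members, 8 stood in 4 such pairs. The first on chromosome 7 joined LOC_Os07g05840 to a gene at 8.46, 8.08 and 7.04 TPM in mutant line 1. A second pair on chromosome 7 had 1 gene at 16.3, 13.1 and 15.8 TPM in mutant line 1 and the other at 7.49, 6.48 and 9.17 TPM there. Both genes of each pair were listed at 0 in every library of mutant line 2 and NP, so both neighbours were listed above 0 in mutant line 1 alone.

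The pair on chromosome 12 had 1 gene at 7.97, 3.51 and 4.07 TPM in mutant line 1 and the other at 40.2, 25.6 and 33.2 TPM there. The next identifier after it was also listed in mutant line 1 alone, at 0.486, 0.598 and 0.612 TPM, too low to be a member. The one before it was at 15.5, 16.5 and 15.1 TPM in mutant line 1, at 14.9, 14.5 and 14.6 TPM in mutant line 2, and at 12.1, 13.6 and 12.1 TPM in NP, so the pattern stopped there. The pair on chromosome 4 had 1 gene at 10.8, 8.41 and 10.4 TPM in mutant line 1 and the other at 5.49, 6.08 and 6.07 TPM there, and its flanking identifiers were listed at 0 in all 9 libraries. Around the whole silent class 48 other identifiers lay directly beside a silent member. Of these 48, 31 were listed at 0 in all 9 libraries, 9 were above 0 in all 9, and 2 were listed in mutant line 1 alone. Over all identifiers, 55.5% were listed at 0 in all 9 libraries, and 99 of 55986 were listed in mutant line 1 alone. The share of all identifiers above 0 in all 9 is not given here.

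The expressed members also held neighbours. On chromosome 3 a run of 3 consecutive identifiers were all members. The first was at 207, 194 and 199 TPM in mutant line 1, at 46.5, 41.2 and 45.9 TPM in mutant line 2, and at 55.7, 54.1 and 62.2 TPM in NP. The second was at 27.6, 24.7 and 28.3 TPM in mutant line 1, at 6.29, 7.06 and 7.99 TPM in mutant line 2, and at 9.40, 10.5 and 12.3 TPM in NP. The third was at 53.1, 50.3 and 51.1 TPM in mutant line 1, at 16.7, 12.4 and 14.3 TPM in mutant line 2, and at 20.4, 17.2 and 18.8 TPM in NP. All 3 genes thus had the same order of groups, with mutant line 1 highest and mutant line 2 lowest and no overlap. The gene after the run did not follow them, at 702, 750 and 721 TPM in mutant line 1, at 831, 814 and 785 TPM in mutant line 2, and at 953, 893 and 868 TPM in NP.

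On chromosome 9 a pair of neighbours were both members, and mutant line 2 lay above NP without overlap in the first alone. The first was at 555, 511 and 545 TPM in mutant line 1, at 180.0, 189 and 172 TPM in mutant line 2, and at 141, 117 and 113 TPM in NP. The second was at 40.6, 36.1 and 38.7 TPM in mutant line 1, at 11.3, 12.5 and 7.37 TPM in mutant line 2, and at 8.41, 8.20 and 6.12 TPM in NP, and the libraries of mutant line 2 and NP overlapped. The identifier after them, no member, was at 246, 238 and 250.2 TPM in mutant line 1, at 97.1, 107 and 87.0 TPM in mutant line 2, and at 37.8, 34.7 and 32.8 TPM in NP. It met the ratio condition and was left out because mutant line 2 was more than 2 times NP. On chromosome 6 the uneven and abundant member described above was followed by a gene at 6.05, 5.01 and 4.32 TPM in mutant line 1, at 0.479, 0.646 and 0.616 TPM in mutant line 2, and at 0.334, 0 and 0.564 TPM in NP. Reads shared between similar neighbouring genes could enter both values, and how the authors treated such reads is not given.

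**Figure D5:**
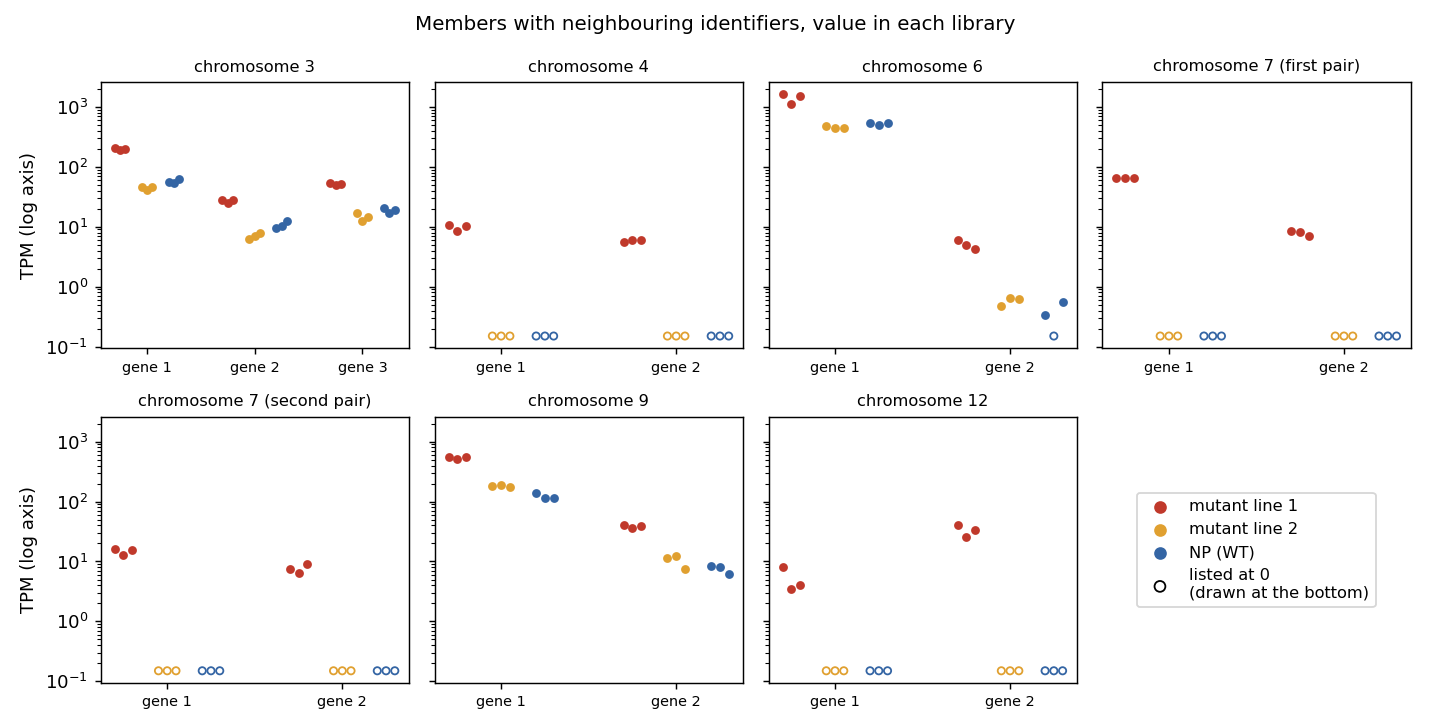
TPM of members with neighbouring identifiers in each library on a log axis, with mutant line 1 in red, mutant line 2 in yellow and NP in blue; open circles at the bottom stand for values listed at 0. Of the 7 groups of neighbours, the 4 on chromosomes 4, 7 and 12 are listed in mutant line 1 alone and those on chromosomes 3, 6 and 9 are also above 0 elsewhere.

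Genes near the members had median changes like those of all tested genes. Within 5 tested identifiers of a member lay 1150 tested genes that were not members. Their median change was -0.06 in mutant line 1 against NP, -0.07 in mutant line 1 against mutant line 2 and 0.01 in mutant line 2 against NP, on the log2(TPM + 1) scale. Over all tested genes these medians were -0.06, -0.07 and 0.00. Of the 1150 genes, 130 (11.3%) were called higher in mutant line 1 than in NP, against 9.94% of all tested genes. Around the silent members alone, 238 such genes had medians of -0.05, -0.09 and 0.03 in the same 3 contrasts.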

How the data were processed

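The authors deposited 1 table of TPM values with 1 column per library, and each column sums to 1000000. Per the submitters' processing notes fastp 0.20.1, HISAT2 2.1.10 and DESeq2 1.26.0 were used, with no role given. The program that computed TPM, the genome build, the annotation and the strandedness are not given in the sources used here. TPM keeps no read depth, so counting error cannot be given and precision rests on the spread between libraries. An exact 0 may be a failed estimate.

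Members and comparisons were chosen with earlier results of these data known. Libraries were grouped by title. limma 3.58.1 in R 4.3.3 was fitted to log2(TPM + 1) for genes averaging at least 1 TPM, with 3 group means, a variance trend and two-sided p-values with Benjamini-Hochberg adjustment over all tested genes. Changes on that scale understate those of low genes, and standard errors of genes at 0 in whole groups are too small. The fit and the rule were run on simulated data with planted changes, which checks the code and says nothing of the members. Without symbols, at most 2 identifiers in each direction are named: the members whose changes in mutant line 1 against NP and against mutant line 2, taking the smaller of both, were largest, and the largest falls called in mutant line 2 against NP. Other members shown were chosen after their values were seen. Gene lists and markers by name were designed but could not be looked up. The 185 identifiers without a chromosome number were left out of positions. Summaries used pandas 2.3.3.

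The alternatives tried were other ratio and level limits, a pseudocount of 0.1, no or a higher minimum TPM, median-ratio and quantile scaling, the replicate number as a block, a prior variance without trend, separate fits of each pair of groups, other neighbour distances, and leaving out each library.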

Additional observations from a re-analysis of the deposited data

Results flagged for a closer look

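In limma's direct comparison of the 2 lines with the same genotype label, 6.8% of tested genes were called higher in mutant line 1. All 125 members were among those called higher in mutant line 1 than in mutant line 2. That difference is what the rule selected, so it describes how the genes were chosen.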

How the results depend on the processing

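The number of members, 125, depended on the limits of the rule. It was 223 at a ratio of 1.5 and 54 at a ratio of 3, 199 with no minimum mean and 80 with a minimum mean of 5 TPM. Of the 125 members, 20 had another member within 5 tested identifiers, and 36 had one within 20. Under the changed limits, in the order above, the number within 5 was 36 of 223, 8 of 54, 43 of 199 and 7 of 80. The share of tested genes that near to a member is not given for those limits. Scaling moved the number of members little, with 130 after median-ratio scaling, among them all 125, and 121 after quantile normalization, among them 115. Setting values at 0 to the lowest nonzero TPM of their library, an alternative chosen after seeing the data, gave 138 members. Leaving out single libraries gave 115 to 134 members and 18 to 21 with a near member. The count of members called higher in mutant line 1 was 80 against NP and 80 against mutant line 2 with a minimum mean of 5 TPM, since 80 members were then tested, and was 124 against mutant line 2 with a pseudocount of 0.1. Leaving out single libraries left both counts at 125. The members called in mutant line 2 against NP numbered 47, 43 to 48 under the other alternatives and 36 to 50 without single libraries. Without the 2 highest members the mean summed level in mutant line 1 was 14189 TPM, against 17893 ± 659 TPM (SD, n = 3), and 17676 to 18272 TPM without single libraries. Genes called over the whole table ranged from 3909 to 4907, from 3060 to 4861 and from 3329 to 4664 without single libraries, in mutant line 1 against NP, mutant line 1 against mutant line 2 and mutant line 2 against NP.

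With the replicate number as a block 125 members were called in each line 1 contrast and 48 in mutant line 2 against NP. Of the 19345 tested genes, that fit called 5076 in mutant line 1 against NP and 4381 in mutant line 1 against mutant line 2. It called 4301 in mutant line 2 against NP, all counts in either direction. Same-numbered deviations had a mean r of 0.0673 for mutant line 1 with NP and 0.0157 for both lines. It was 0.124 for mutant line 2 with NP. Not every pair of groups was over 0.1, so the main fit did not pair the libraries. These values cannot show that the libraries were unpaired. The 4 named genes kept their direction and call wherever they were tested. Depth is unknown, which limits the low genes most.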
